A study of Homo sapiens with 6 samples.

Results

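A set of 10 ETS transcription factors, taken by gene symbol for the family's part in blood lineage choice, was followed in HUDEP-2 cells after knockdown of MEN1: SPI1, FLI1, ERG, ETS1, ETS2, ETV6, ELF1, ELF2, ELK3 and GABPA. All 10 symbols were found, each as 1 row among the 62754 genes of the deposited tables. HUDEP-2 is an immortalised human erythroid progenitor line, grown here with erythropoietin (3 units per ml), stem cell factor (50 ng per ml), dexamethasone (1e-06 M) and doxycycline (1 µg per ml). One group of 3 libraries (the knockdown) carried the lentiviral shRNA named MEN1sh2 and the other group of 3 a lentiviral non-targeting shRNA. Both groups passed through the same puromycin selection (2 µg per ml, begun 24 h after infection and kept for 48 h), and the RNA was taken at 72 h. A single hairpin was used, so what it does through MEN1 and what it may do elsewhere cannot be told apart, and the line is a cultured model and not primary marrow. The titles call the 3 libraries of a group biological replicates, without saying whether they came from separate infections, so p-values measure only the spread between these libraries.

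ETS factors share a DNA-binding domain, a winged helix-turn-helix that reads a GGAA core, and in blood they help to set lineage. PU.1, the product of SPI1, drives myeloid and B-cell fate and antagonises the erythroid factor GATA1. FLI1 favours the megakaryocyte over the red cell lineage and is antagonised by KLF1, ERG and ETV6 maintain stem cells, and GABPA serves many housekeeping and mitochondrial genes. Menin, the product of MEN1, is a scaffold that holds the MLL1 histone methyltransferase at chromatin.

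For 4 of the 10 genes there is a RefSeq promoter (GRCh38.p14) whose start site falls on the first base of the gene in the deposited tables. Their 250 bases before the start are shown because ELK3, ETV6, ETS2 and ELF2 were among the 5 members that passed the test, the first 3 lower and ELF2 higher with the MEN1 shRNA. Capitals mark the ETS core GGAA or its reverse complement TTCC, and each sequence is written 5′ to 3′ on the strand of its gene.
ELK3, chr12:96194125-96194374, plus strand: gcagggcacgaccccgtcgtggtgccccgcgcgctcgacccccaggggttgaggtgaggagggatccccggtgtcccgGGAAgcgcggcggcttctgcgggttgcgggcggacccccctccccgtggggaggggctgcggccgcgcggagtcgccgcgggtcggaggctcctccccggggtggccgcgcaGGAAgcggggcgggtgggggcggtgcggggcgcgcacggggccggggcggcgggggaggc
ETV6, chr12:11649424-11649673, plus strand: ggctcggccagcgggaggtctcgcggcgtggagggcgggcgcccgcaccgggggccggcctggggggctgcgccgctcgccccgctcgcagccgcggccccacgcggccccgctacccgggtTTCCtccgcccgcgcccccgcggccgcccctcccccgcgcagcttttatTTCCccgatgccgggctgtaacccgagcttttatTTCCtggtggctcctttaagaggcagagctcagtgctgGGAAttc
ETS2, chr21:38804933-38805182, plus strand: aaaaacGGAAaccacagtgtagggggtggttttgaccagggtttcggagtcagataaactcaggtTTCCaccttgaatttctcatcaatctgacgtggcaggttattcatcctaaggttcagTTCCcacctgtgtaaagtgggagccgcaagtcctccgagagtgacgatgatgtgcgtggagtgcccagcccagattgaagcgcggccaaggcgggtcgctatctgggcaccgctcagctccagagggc
ELF2, chr4:139177219-139177468, minus strand: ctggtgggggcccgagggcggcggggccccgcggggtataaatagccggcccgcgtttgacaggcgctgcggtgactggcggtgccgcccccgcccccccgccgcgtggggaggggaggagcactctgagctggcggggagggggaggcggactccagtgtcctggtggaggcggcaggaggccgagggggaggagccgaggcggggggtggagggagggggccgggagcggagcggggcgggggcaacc
The core was found 2 times in the window of ELK3, 4 times in that of ETV6, 3 times in that of ETS2 and 0 times in that of ELF2. RefSeq promoters of these genes at other start sites, not printed, held the core 6 times for ELK3, 6 times for ETS2 and 2 times for ELF2. The counts therefore depend on the start site. The core is common: 92.7% of 35116 RefSeq promoter windows of this length hold it on either strand, with a median of 3 matches. The longer letters CCGGAAG, on either strand, are in 8.52% of all windows and in none of the 4 printed. The letters AGATAA, read by the factors of which GATA1 is one, are on either strand in 9.17% of all windows and in the window of ETS2 only among the 4. The ETS2 promoter at the start site not printed held AGATAA 0 times. The windows of ELK3 (82.0%), ELF2 (78.8%) and ETV6 (74.4%) are richer in G and C than that of ETS2 (54.4%), beside a median of 58.0% over all windows. At the start sites not printed, the G and C share was 57.2% for ELK3, 75.2% for ELF2 and 68.8% for ETS2. These matches describe the letters of the windows and are not evidence of binding.

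MEN1, the targeted gene, was at 6.29, 6.44 and 6.88 TPM in MEN1 shRNA replicates 1, 2 and 3 and at 41.2, 39.6 and 37.1 TPM in the controls. It fell to 16.6% of the control level (log2 fold change -2.42, SE 0.0803, limma adjusted p 8.5e-06). TPM, the unit of the deposited levels, is scaled for gene length and library size and sums to 1000000 in a library. No read counts were used. In genes with 1 annotated transcript, a mean coverage of 1 read per base corresponded to between 0.205 TPM (control replicate 2, the deepest library) and 0.387 TPM (MEN1 shRNA replicate 3, the shallowest). Between 13865 and 14361 genes per library reached 1 TPM. Erythroid identity was checked with 12 marker genes, all of which reached 1 TPM in at least 3 libraries, with a summed level of 56221 to 62389 TPM in the controls and 99094 to 111153 TPM with the MEN1 shRNA. Of 12 lymphoid markers, 10 stayed under 1 TPM in every library. What part the shift in erythroid genes has in the levels of the ETS factors was not tested.

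Levels of the 10 factors in control cells spanned a wide range. ELF1, a factor of many blood lineages, was the most abundant at 110.3 ± 2.57 TPM (SD, n = 3). ETS2 (37.5 ± 0.386), ELF2 (36.3 ± 1.20), GABPA (31.6 ± 1.33) and SPI1 (31.2 ± 4.17 TPM) formed a middle tier. Within it the ranges of ETS2 and ELF2 overlapped, and so did those of GABPA and SPI1. ETV6 (6.01 ± 0.333) and ELK3 (4.92 ± 0.204 TPM) were lower, without overlap between them, and ERG was at 1.17 ± 0.200 TPM. FLI1 and ETS1 were at or close to 0. With the MEN1 shRNA the order in TPM changed in 1 respect: ETS2 dropped from the second to the fifth place, below ELF2, GABPA and SPI1.

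**Figure D1:**
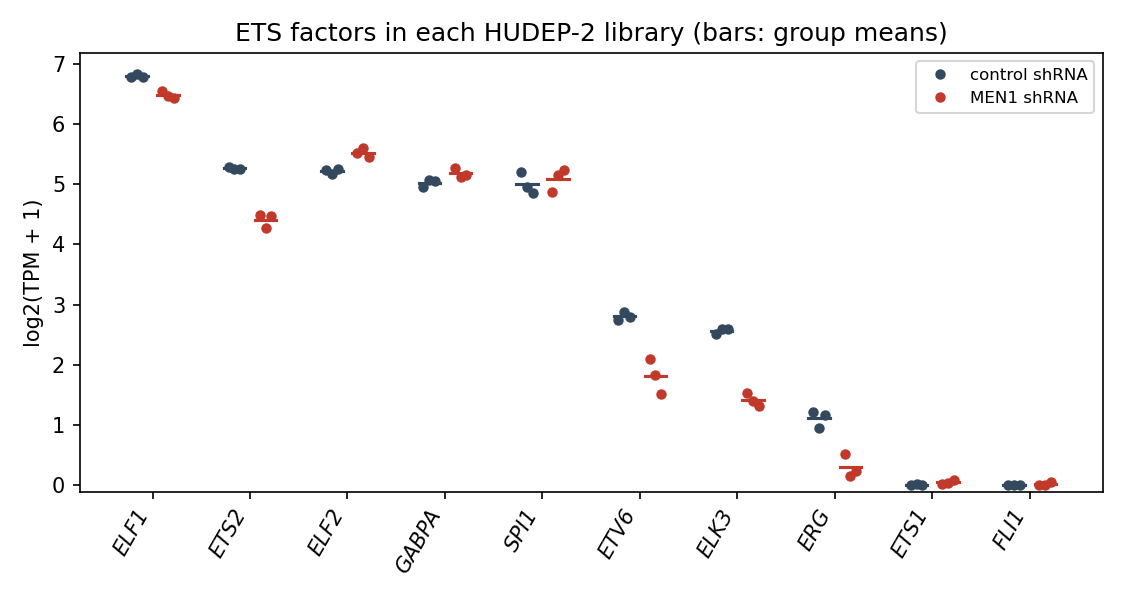
Expression of the 10 ETS factors as log2(TPM + 1) in each of the 6 libraries, 3 per group; points are libraries and bars are group means. ETS2, ETV6, ELK3, ERG and ELF1 lie lower in every MEN1 shRNA library than in any control library, ELF2 and GABPA lie higher, SPI1 overlaps, and ETS1 and FLI1 lie near 0.

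Tests were made on log2(TPM + 1) with limma across the 14294 genes that reached 1 TPM in at least 3 libraries, with Benjamini-Hochberg adjustment over all of them. Fold changes are MEN1 shRNA minus control on that scale, which understates the change of low genes. Of the 10 factors, 7 entered the test and 3 (ERG, ETS1 and FLI1) were too low. ELK3, ETV6, ETS2 and ELF1 fell and ELF2 rose at an adjusted p under 0.05, and SPI1 and GABPA did not pass. In the background of this comparison 53.6% of all tested genes passed, 31.5% lower and 22.1% higher, so 5 of 7 stands beside a background in which most genes pass. Of the 7, 6 had groups that did not overlap, beside 61.8% of all tested genes. Of the 12 erythroid markers 11 rose and 0 fell, beside the 22.1% of all tested genes that were higher. The marker list was chosen with earlier results of these data known, so this count is a description and not a test. The median log2 fold change of the 7 was -0.32, beside -0.07 over all tested genes. In bulk RNA, fewer cells of a kind and less RNA per cell cannot be told apart.

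Among the members, ELK3 and ETS2, which act downstream of growth signals, both fell. This does not extend to all such factors, since ELK1, a relative of ELK3 outside the set of members, rose (log2 fold change 0.63). ELK3 (ENSG00000111145, chromosome 12, 96194375 to 96269824, plus strand) in hg38 coordinates, as for all genes here, encodes Net, a ternary complex factor that binds DNA with SRF and represses until it is phosphorylated. It was at 1.89, 1.65 and 1.49 TPM in MEN1 shRNA replicates 1, 2 and 3 and at 4.68, 5.05 and 5.03 TPM in the controls. No MEN1 shRNA library came near a control library, and 34.0% of its level in control cells was left. The mean coverage of ELK3 was 1.42, 1.04 and 0.833 reads per base in MEN1 shRNA replicates 1, 2 and 3. It was 3.69, 4.72 and 3.35 in the controls, so the values in knockdown cells rest on few reads. On the log2 scale the fold change was -1.15 (SE 0.123, 95% confidence interval -1.44 to -0.86, limma adjusted p 0.000214), the largest of the 7 tested members in size on this scale. Of all tested genes, 8.64% changed by as much or more. The value depended on the scale, at -1.51 with a pseudocount of 0.1 and -0.58 with gene-level coverage in place of TPM (adjusted p 0.000389). The share of the control level remaining was 33.6% in coverage.

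ETS2 (ENSG00000157557, chromosome 21, 38805183 to 38824955, plus strand) is activated through the RAS and MAP kinase pathway. It was at 21.3, 18.4 and 21.1 TPM in knockdown cells, compared with 37.9, 37.2 and 37.3 TPM in the controls. The groups were far apart compared with the spread in either, with SDs of 1.62 and 0.386 TPM. The log2 fold change was -0.85 (SE 0.0774, limma adjusted p 0.000106), the lowest adjusted p among the 7, and 54.2% of the control level remained. ETS1 (ENSG00000134954, chromosome 11, 128458761 to 128587558, minus strand), its closest relative, was at 0.0166, 0.0308 and 0.0669 TPM in knockdown cells, was at 0.0191 TPM in control replicate 2, and is listed at 0 in control replicates 1 and 3.

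The stem cell factors ETV6, ERG and FLI1 were all low in these erythroid cells. ETV6 (ENSG00000139083, chromosome 12, 11649674 to 11895377, plus strand), a transcriptional repressor whose inherited variants impair platelet production, was at 3.30, 2.57 and 1.85 TPM in knockdown cells. Its control values were 5.74, 6.38 and 5.91 TPM. The MEN1 shRNA libraries varied among themselves more than the controls did, and all 3 lay below them. ETV6 fell with a log2 fold change of -0.99 (SE 0.166, limma adjusted p 0.00168), and 42.8% of the control level remained.

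ERG (ENSG00000157554, chromosome 21, 38380027 to 38661780, minus strand) was at 0.437, 0.120 and 0.186 TPM in knockdown cells, compared with 1.32, 0.942 and 1.24 TPM in the controls. The groups did not overlap, and its mean coverage was 0.0949 to 0.893 reads per base, so these values rest on few reads. ERG did not enter the main test; without a filter on low genes its log2 fold change was -0.80 with a limma adjusted p of 0.0187. FLI1 (ENSG00000151702, chromosome 11, 128686535 to 128813267, plus strand) is listed at 0 in all 3 controls and in MEN1 shRNA replicate 2, and reached 0.00536 and 0.0435 TPM in MEN1 shRNA replicates 1 and 3. No fold change is given for FLI1 or ETS1, which are at or near 0 in both groups.

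Among the members, ETS1 with FLI1 and ERG with ETS2 are neighbours. ETS1 and FLI1 are 99.0 kb apart on chromosome 11, and both were near 0 in every library. ERG and ETS2 are 143 kb apart on chromosome 21, where both were lower in every MEN1 shRNA library than in any control. Groups did not overlap in 61.8% of all tested genes, and ERG, whose values rest on few reads, did not enter that test.

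The paralogs ELF1 and ELF2 moved in opposite directions in TPM. ELF1 (ENSG00000120690, chromosome 13, 40931924 to 41061440, minus strand) was at 92.8, 87.5 and 85.0 TPM in knockdown cells, compared with 108.6, 113 and 109.1 TPM in the controls. It fell by 0.32 on the log2 scale (SE 0.0576, limma adjusted p 0.00256), to 80.2% of the control level. ELF2 (ENSG00000109381, chromosome 4, 139028112 to 139177218, minus strand) was at 44.95, 47.4 and 42.7 TPM in knockdown cells, compared with 36.5, 35.0 and 37.3 TPM in the controls. It rose with a log2 fold change of 0.30 (SE 0.0672, limma adjusted p 0.00642), to 124% of the control level. Both shifts are small, and neither gene's groups overlapped. ELF2 overlaps NOCT on the other strand by 17828 bases, a gene named here only for that overlap. Whether quantification used strand is not stated in any source used here, so reads in those bases may belong to either gene. In TPM, ELF1 exceeded ELF2 by 2.97, 3.24 and 2.92 times in the control libraries and by 2.06, 1.84 and 1.99 times with the MEN1 shRNA.

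The rise of ELF2 depended on the unit. With gene-level coverage (mean reads per base over the gene, scaled per library to TPM units) in place of TPM, an alternative chosen after the data were seen, its log2 fold change was 0.16 with a limma adjusted p of 0.103, against 0.003 to 0.0274 in the other settings. ELF2 has 13 transcripts in GENCODE v29, and its TPM was 9.90 to 11.7 times its scaled coverage in the 6 libraries. For ELK3 this ratio was 4.62 to 5.94, and for ERG 3.16 to 8.60. For GABPA (1.10 to 1.12), ETV6 (1.18 to 1.28), ELF1 (1.38 to 1.48), SPI1 (1.55 to 1.61) and ETS2 (1.80 to 1.82) it stayed below 2. On the scaled coverage the control order was ELF1, GABPA, ETS2, SPI1, ETV6, ELF2, ELK3 and ERG, in which ELF2 (3.58 ± 0.169) ranked below ETV6 (4.84 ± 0.168). With the MEN1 shRNA, ELF2 (4.12 ± 0.0631) ranked above ETV6 (2.18 ± 0.618) on this scale, and SPI1 (20.9 ± 2.43) above ETS2 (11.2 ± 0.945). The mean scaled coverage of ELF1 was 77.0 in the controls and 61.9 with the MEN1 shRNA, beside 3.58 and 4.12 for ELF2. The place of ELF2 among the factors and the size of its ratio to ELF1 are therefore tied to the unit, while ELF1 led on both.

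**Figure D2:**
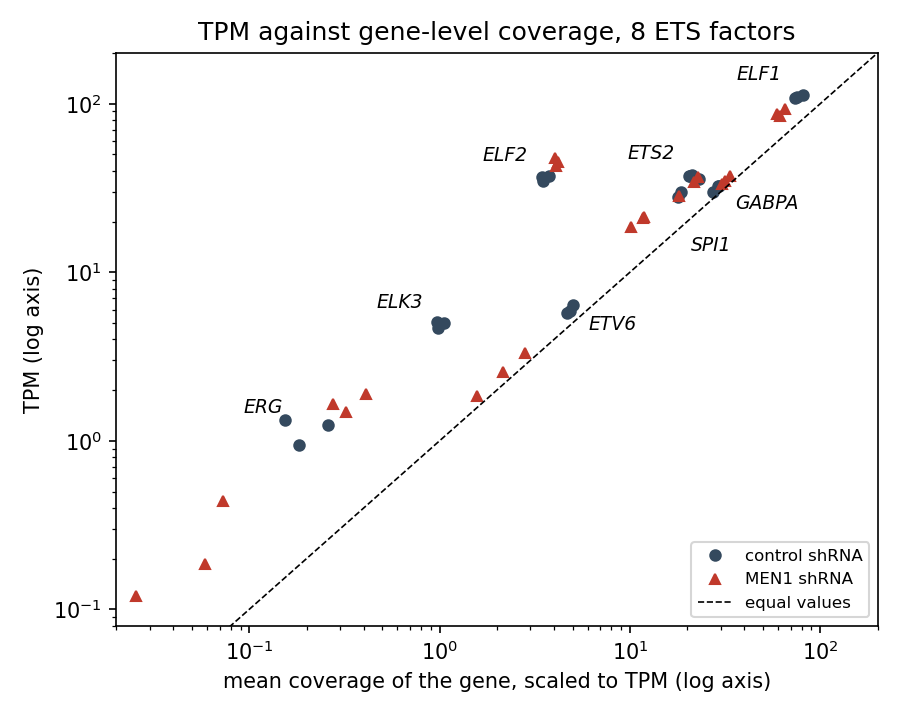
TPM against mean gene coverage scaled to TPM units, both on log axes, for the 8 factors with a control mean of at least 1 TPM; each point is 1 library and the dashed line marks equal values. ELF2 lies 9.90 to 11.7 times above the line and GABPA 1.10 to 1.12 times above it.

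SPI1 and GABPA did not pass the test. SPI1 (ENSG00000066336, chromosome 11, 47354860 to 47378547, minus strand) was at 28.4, 34.5 and 36.6 TPM in knockdown cells, compared with 35.9, 29.9 and 27.8 TPM in the controls. The groups overlapped fully, with a log2 fold change of 0.08 (95% confidence interval -0.21 to 0.38, limma adjusted p 0.599). GATA1, the erythroid master factor that PU.1 opposes, was 7.83 to 10.3 times as abundant as SPI1 with the MEN1 shRNA and 7.81 to 9.71 times in the controls. The log2 ratio of SPI1 to GATA1 was -3.09 ± 0.196 and -3.12 ± 0.163 (SD, n = 3 each), differing by 0.02 (exact permutation test, 2-sided, p = 1.0), where 0.1 is the smallest that 3 against 3 libraries allow. The corresponding ratio of FLI1 to KLF1 differed by 0.07 (exact permutation p 0.4), and with FLI1 near 0 it carries little beyond the level of KLF1.

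GABPA (ENSG00000154727, chromosome 21, 25734570 to 25772460, plus strand) was at 37.5, 33.6 and 34.8 TPM in knockdown cells, compared with 30.1, 32.4 and 32.4 TPM in the controls. All 3 MEN1 shRNA libraries were higher than any control. The log2 fold change was 0.15 (95% confidence interval -0.01 to 0.32, limma adjusted p 0.110). It passed under median-of-ratios scaling (0.24, adjusted p 0.0193) and, with globin and mitochondrial genes taken out before TPM was rescaled, at 0.22 (adjusted p 0.0348). With gene-level coverage it also passed, at 0.16 (adjusted p 0.0491). By 1104 bases GABPA overlaps ATP5PF on the other strand, a gene looked at only after its overlap was seen, with a log2 fold change of -0.12 (adjusted p 0.215). No source used here says whether quantification used strand, so reads in the shared bases may belong to either gene.

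GABPA binds DNA together with a beta subunit from GABPB1 or GABPB2, and these moved in opposite directions. GABPB1 was at 16.9, 14.6 and 18.0 TPM in knockdown cells, compared with 21.7, 22.7 and 22.2 TPM in the controls, and fell (log2 fold change -0.41, limma adjusted p 0.00683). GABPB2 was at 18.6, 18.7 and 19.5 TPM against 9.21, 11.6 and 13.3 TPM, and rose (log2 fold change 0.70, limma adjusted p 0.00239). Their summed level was 35.4 ± 2.16 and 33.6 ± 2.37 TPM with overlapping ranges. GABPB1 outweighed GABPB2 by 1.68 to 2.36 times in the controls and was at 0.782 to 0.925 of it with the MEN1 shRNA.

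Over the 10 factors the summed level was 226.7 ± 3.47 TPM with the MEN1 shRNA and 259 ± 2.54 TPM in the controls. ELF1 made up 39.0% ± 1.16 and 42.6% ± 0.942 of that sum. The share of ETS2 was 8.96% ± 0.688 against 14.5% ± 0.148, and that of ELF2 19.9% ± 1.01 against 14.0% ± 0.570. In scaled coverage the sums over the 10 were 133 ± 4.20 and 156 ± 2.92. The shares were tied to the unit. In coverage ELF1 held 46.7% with the MEN1 shRNA and 49.4% in the controls, with overlapping ranges. GABPA came next at 24.1% and 18.3%, ETS2 held 8.46% and 13.3%, and ELF2 only 3.11% and 2.30%. Including 18 further ETS genes the sums were 417 ± 14.1 and 434 ± 27.2 TPM, with overlapping ranges.

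Of those 18 other ETS genes, 8 entered the test, and 10 stayed under 1 TPM in every library. ETV3, ETV4 and ELK4 fell, ELK1 and ETV2 rose, and ELF4, ERF and ETV5 did not pass, so that 5 of 8 stand beside 53.6% of all tested genes. ETV3, a repressor, was at 15.3, 13.0 and 12.8 TPM in knockdown cells, compared with 26.7, 28.4 and 27.8 TPM in the controls (log2 fold change -0.96, SE 0.0891, limma adjusted p 0.000115). ELK1, a ternary complex factor like ELK3, was at 99.9, 99.0 and 101 TPM against 47.3, 73.5 and 75.5 TPM (log2 fold change 0.63, limma adjusted p 0.0134). The 2 relatives thus moved apart. In TPM, ELK1 exceeded ELK3 by 52.9 to 67.8 times with the MEN1 shRNA and by 10.1 to 15.0 times in the controls. In scaled coverage the means with the MEN1 shRNA were 69.3 for ELK1 and 0.336 for ELK3. Those of the controls were 44.1 and 0.999, so the size of this ratio is tied to the unit. Control replicate 1 was the lowest library for ELK1, and without it the log2 fold change was 0.42 (adjusted p 0.00208). Without the filter on low genes ELK1 did not pass (adjusted p 0.0627).

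ETV4, of the PEA3 group, had a log2 fold change of -0.78 (limma adjusted p 0.00917) and passed whichever library was left out. ELK4 was at -0.40 (adjusted p 0.0217) and ETV2, a factor of endothelial and blood specification, at 0.58 (adjusted p 0.0386). ELK4 lost its call without MEN1 shRNA replicate 2 (adjusted p 0.0658), MEN1 shRNA replicate 3 (0.0614), control replicate 2 (0.0629) or control replicate 3 (0.0700), and without the filter on low genes (0.0645). ETV2 lost its call without MEN1 shRNA replicate 1 (0.0994), MEN1 shRNA replicate 2 (0.108), control replicate 1 (0.0517) or control replicate 3 (0.0766), with gene-level coverage (0.0525) and without the filter on low genes (0.126). The count of 5 came to 3 without MEN1 shRNA replicate 2, without control replicate 3 and without the filter on low genes. The 3 without the filter were ETV3, ETV4 and ELF3, the last under 1 TPM in every library and named after its values were seen (log2 fold change 0.69, limma adjusted p 0.00915). The log2 fold change of ELF4 was 0.34 (adjusted p 0.227), that of ERF -0.20 (0.487) and that of ETV5 0.04 (0.869). Control replicate 3 was the lowest library for ELF4, and without it the ELF4 value was 0.0633 (limma adjusted p 0.635).

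**Figure D3:**
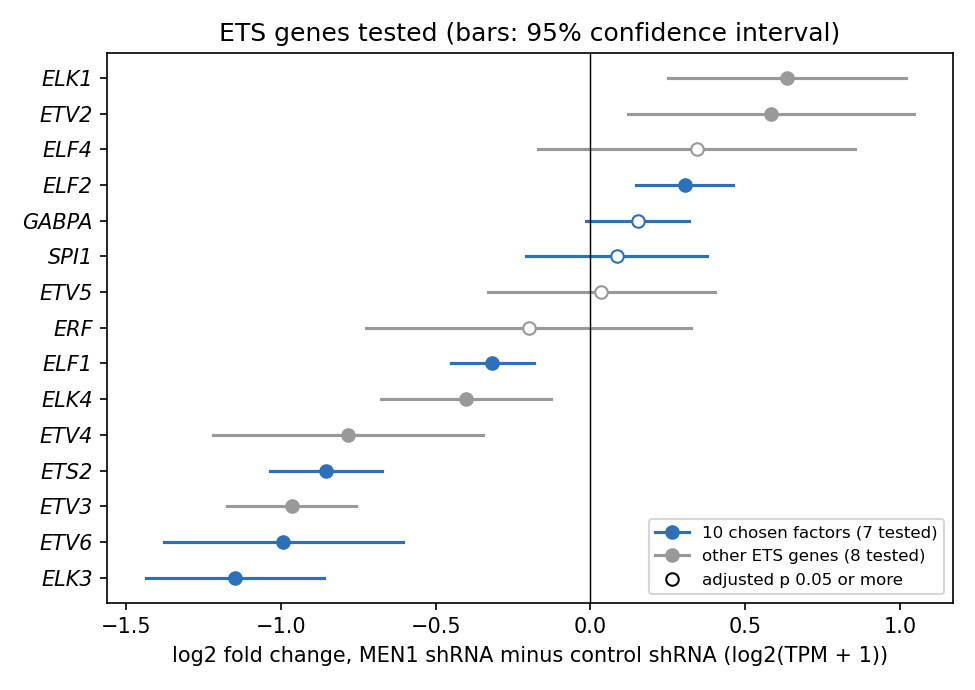
Log2 fold changes of the 15 ETS genes tested, MEN1 shRNA minus control on log2(TPM + 1), with 95% confidence intervals from limma; blue marks the 7 tested of the 10 factors, grey the other ETS genes, and open circles an adjusted p of 0.05 or more. ELK3 lies lowest at -1.15 and ELK1 highest at 0.63.

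Factors that bind beside ERG and FLI1 in blood progenitors were compared as part of a list of 22 partner and cofactor genes. Of these, 4 rose and 8 fell, 12 of 22 beside 53.6% of all tested genes. RUNX1, needed for blood stem cells and platelets, was at 13.3, 10.9 and 10.7 TPM in knockdown cells, compared with 38.6, 34.0 and 31.7 TPM in the controls (log2 fold change -1.50, SE 0.111, limma adjusted p 5.2e-05). With gene-level coverage the RUNX1 value was -0.70 (adjusted p 0.000426), and its TPM was 24.2 to 31.1 times its scaled coverage. GATA2, the progenitor GATA factor, was at 80.0, 51.8 and 84.6 TPM against 149, 168 and 155 TPM and fell (log2 fold change -1.14, limma adjusted p 0.00101).

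TAL1 and LYL1 rose, and LMO2, GATA1 and KLF1 did not pass. TAL1, the erythroid and stem cell bHLH factor, was at 145, 158 and 170 TPM in knockdown cells, compared with 94.1, 94.8 and 92.1 TPM in the controls, and rose (log2 fold change 0.74, limma adjusted p 0.000115). LYL1, its paralog, rose from 209 ± 6.63 to 267 ± 19.4 TPM (0.35, adjusted p 0.00322). LMO2, an adaptor protein, did not pass (-0.25, limma adjusted p 0.650). Control replicate 3, at 85.3 TPM, stood apart from 297 and 280 TPM in control replicates 1 and 2, and leaving it out gave LMO2 a value of -0.84 (adjusted p 0.000733). GATA1 (289 ± 2.26 against 277 ± 6.22 TPM, adjusted p 0.327) and KLF1 (533 ± 9.76 against 553 ± 36.2 TPM, adjusted p 0.507) did not pass; GATA1 passed under median-of-ratios scaling (adjusted p 0.0428), and the sign of KLF1 changed with that scaling and without globin and mitochondrial genes.

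**Figure D4:**
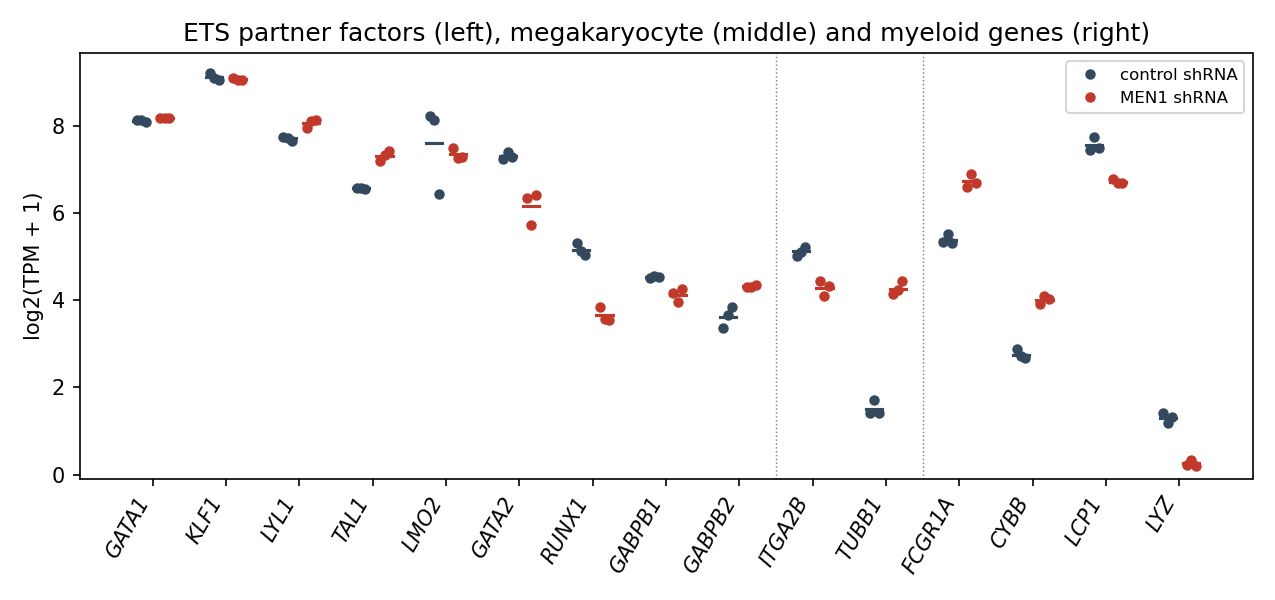
Levels of ETS partner factors, megakaryocyte genes and myeloid genes named in the text as log2(TPM + 1) in each library; points are libraries, bars are group means, and dotted lines separate the 3 sets. RUNX1, GATA2, ITGA2B, LCP1 and LYZ lie lower and TAL1, TUBB1, FCGR1A and CYBB higher in all 3 MEN1 shRNA libraries.

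Megakaryocyte genes, several of them known targets of FLI1, were mostly under 1 TPM. Of 15 listed, 11 stayed under 1 TPM in every library, and PF4, PPBP and SELP, named after their values were seen, are listed at 0 throughout. The summed level was 65.4 to 78.6 TPM with the MEN1 shRNA and 57.8 to 65.5 TPM in the controls. ITGA2B, the platelet integrin alpha chain, was at 20.8, 16.1 and 18.9 TPM against 31.5, 33.5 and 36.3 TPM and fell (log2 fold change -0.83, limma adjusted p 0.000456). TUBB1, the platelet beta-tubulin, was at 16.5, 17.7 and 20.6 TPM against 1.67, 2.26 and 1.66 TPM and rose (2.75, adjusted p 1.7e-05). They were 2 of 4 tested genes, beside 53.6% of all tested genes, and without MEN1 shRNA replicate 1 the number that passed was 4.

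Myeloid genes, many of them targets of PU.1, split as well. Of 15 listed, 8 stayed under 1 TPM in every library, among them CSF1R at most 0.0670 and MPO at most 0.122 TPM, named after their values were seen. Of the 7 tested, 4 rose and 2 fell, 6 of 7 beside 53.6% of all tested genes. That count takes in LYZ, which reached 1 TPM in the control libraries only, so its place among the tested genes depends on the group where it is high. The summed level was 321 to 348 TPM with the MEN1 shRNA and 319 to 368 TPM in the controls. FCGR1A, an Fc receptor gene with near-identical copies among which reads may be divided, was at 95.7, 119 and 102 TPM against 39.3, 44.5 and 38.6 TPM (log2 fold change 1.34, limma adjusted p 4.7e-05). CYBB, the NADPH oxidase heavy chain, rose from 5.74 ± 0.516 to 15.1 ± 1.02 TPM (1.26, adjusted p 6.9e-05). LCP1, the leukocyte plastin, fell from 189 ± 21.3 to 104 ± 4.06 TPM (-0.84, adjusted p 0.000163). LYZ, lysozyme, was at 1.27 to 1.67 TPM in the controls and 0.151 to 0.268 TPM in knockdown cells (-1.05, adjusted p 0.00117), and it entered the test only through the control libraries.

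The genes whose pattern over the 6 libraries was most like that of ELK3, by Euclidean distance of centred log2(TPM + 1) among 9896 named genes with a mean of at least 5 TPM, were FMNL1 (distance 0.0661), ITGBL1 (0.0673) and NRAS (0.0763). FMNL1, a formin, was at 15.0, 14.0 and 13.3 TPM in knockdown cells, compared with 29.9, 33.1 and 33.1 TPM in the controls. NRAS, a RAS GTPase, was at 33.0, 29.2 and 27.5 TPM against 63.7, 66.9 and 71.1 TPM. ITGBL1, named for its resemblance to integrin beta chains, had a log2 fold change of -1.16, beside -1.13 for FMNL1 and -1.15 for NRAS. ELK3 is at lower TPM than these 3 genes, so log2(TPM + 1) understates its change more than theirs. The likeness therefore holds on that scale and not in TPM. With 2 groups of 3, genes with a like difference between groups come out as near by this measure.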

How the data were processed

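Poly(A) RNA of 6 HUDEP-2 libraries, 3 per group, was sequenced from directional libraries, per the labels' protocols. The submitters' processing notes name Trimmomatic, FastQC, STAR 2.7.1a, Picard 2.20.4, StringTie 2.0.4 and the build hg38; no source used here gives their options or the annotation. The authors deposited 1 table per library with TPM, FPKM and a coverage signal per gene, per the file headers. From the values, the deposited TPM sums to 1000000 per library, while the coverage moves with depth. Residues just below 0 in the deposited TPM and coverage (unit given as other) of control replicate 2 were set to 0. Without counts, no count model was fitted, and counting intervals are not given.

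Genes with at least 1 TPM in at least 3 of 6 libraries (14294) were fitted as log2(TPM + 1) with limma 3.58.1 in R 4.3.3 (eBayes with trend, 2-sided, Benjamini-Hochberg, threshold 0.05), with no replicate block; the fit was tested on simulated data. Coverage was scaled per library by the TPM to coverage ratio of 1599 genes with 1 GENCODE v29 transcript. Python 3.11.15, pandas 2.3.3, NumPy 2.4.6 and matplotlib 3.10.9 were used. RefSeq promoter windows matched 7 of the 10 members.

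The members and gene lists were chosen with earlier results of these data known. Named by rule were all members, the other ETS genes tested, 9 partner genes, MEN1, and from the megakaryocyte and myeloid lists at most 4 genes with the lowest adjusted p, besides the 3 genes most like the member with the largest change.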

Additional observations from a re-analysis of the deposited data

How the results depend on the processing

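Gene-level coverage was an alternative chosen after the data were seen. The other alternatives were a pseudocount of 0.1, no filter, a mean of at least 5 TPM, FPKM, median-of-ratios scaling, TPM rescaled without globin and mitochondrial genes, a replicate block and leaving out each library.

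Of 96 comparisons for the 7 tested members, 92 kept direction and side of the threshold. ELF2 lost its call with gene-level coverage (0.16), and GABPA passed with it (0.16), by median-of-ratios scaling (0.24) and in rescaled TPM (0.22); the cause was not tested. ELK3, ETV6 and ERG could not be tested at a mean of 5 TPM or more, where 3 members passed in place of 5, by construction. The ERG value of -0.80 was -1.96 with a pseudocount of 0.1 and -0.19 with coverage; its levels lie near the pseudocount. FLI1 and ETS1, near 0, were given no fold change. The FLI1 to KLF1 ratio turned to -0.013 under median-of-ratios scaling.

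With 1 library left out, 5 members passed each time; other ETS genes passing ran from 3 to 4, megakaryocyte genes from 2 to 4 and the SPI1 to GATA1 difference from -0.0545 to 0.134. Without a filter, 3 other ETS genes passed. Genes passing overall ran from 6345 (mean of 5 TPM or more) to 7674 (FPKM). Of those, 39.3% to 49.5% were higher.

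Deviations of libraries with the same replicate number were hardly correlated (0.017, -0.027 and -0.012). With the replicate block 7012 genes and the 5 members passed.

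For the other named genes, signs turned where no call was made: KLF1 (0.0363 with median-of-ratios, 0.0153 in rescaled TPM), LMO2 (0.0568 and 0.0156 without control replicates 1 and 2) and ETV5 (-0.0104 with coverage). With 1 library left out, KLF1 ran from -0.0897 to 0.00021, LMO2 from -0.836 to 0.0568 and ETV5 from -0.0614 to 0.14. ERG was covered by less than 1 read per base in every library, and ELK3 by 0.833 reads per base in MEN1 shRNA replicate 3.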
